A study of Mus musculus with 2 samples.

Results

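The TNF superfamily consists of membrane-anchored or shed ligands that act as trimers and of receptors with cysteine-rich repeats in their outer part. Receptors with a death domain, such as Fas, can start apoptosis, and those without one recruit TRAF adaptors and activate NF-kappaB. In T cells the family is best known for TNF and lymphotoxins as effector cytokines, for Fas ligand in the killing of target cells, and for OX40, CD137 and GITR as costimulatory receptors that appear on activation.

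The values below are those of 40 listed ligand and receptor genes, chosen by symbol as members of the family. A probe set is a group of short array probes for 1 transcript, and 55 probe sets annotated to exactly 1 gene belonged to 35 of the 40 genes, out of 18193 genes with such a probe set. Tnfsf12, Tnfsf13, Tnfsf15, Tnfsf18 and Tnfrsf26 are not analysed here. There were 13 ligand genes and 22 receptor genes.

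RNA was measured on 1-colour Affymetrix oligonucleotide arrays of RPE-exposed T cells and of control T cells from mice, with 1 array in each group. RPE is the retinal pigment epithelium, a pigmented sheet of cells at the back of the eye. Both samples came from male mice of a C57BL/6 background, 6 weeks of age. The control sample was titled as CD4 T cells, while the exposed one was titled as T cells and its tissue field named primary cultured RPE. The number of animals or cultures pooled, the length of the exposure and any stimulation of the T cells are not stated in the labels. The comparison asks how exposure to RPE alters the T-cell transcripts.

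Since each group had a single array, no spread between samples, test or p-value could be had, and precision is limited by the array number. Signals are deposited linear intensities, already scaled alike on both arrays, and the median signal of each array (16 on the RPE-exposed and 15.9 on the control array) served as a floor. Where a gene had several probe sets, the one with the highest mean over both arrays, in log2, stands for it. Where 1 of the 2 signals lay under the floor, the fold was computed against the floor and is given as "at least". Differences are log2 signals in RPE-exposed minus control T cells, and 2-fold was the size rule for a count. Each difference is also set beside the range that held the central 95% of genes in the same of 20 bins of mean signal, called the like-level range. Signals of different probe sets are not comparable with each other, so only differences between the arrays are compared across genes.

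T-cell markers were present on both arrays, with a median difference of 0.01 over 8 genes. Cd3d had 3505.9 in RPE-exposed and 3073.4 in control T cells, Cd2 2212.2 and 2329.9, and Cd28, the only 1 above its like-level range, 2319.2 and 1658.9. The coreceptor genes of CD8 T cells were present on both arrays although the control title named CD4 T cells: Cd8a had 694.6 in RPE-exposed and 568.8 in control T cells, and Cd8b1 983.9 and 706.4. Both were higher in RPE-exposed T cells, Cd8a (0.29) within its like-level range and Cd8b1 (0.48) above its range of -0.36 to 0.36. The part of CD8 T cells in the members' values was not tested. Defining RPE genes were near background, with Rpe65 at 2.3 in RPE-exposed and 5.3 in control T cells. Among 13 RPE genes, 12 were under the floor on both arrays, Tyr (9.3 and 14) and Dct (9.3 and 12) among them, and Pmel (18.3 and 15.2) was above it in RPE-exposed T cells only.

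Sequences upstream of 3 ligand genes are shown because Tnf, Lta and Ltb are neighbours on chromosome 17 with no other protein-coding gene between them in the RefSeq table, and yet their differences ran from -2.41 to 0.30. Each is the 250 bases before the gene's start from RefSeq (build GRCm38.p6), 5′ to 3′ on the gene's strand, at chr17:35202008-35202257 (minus strand) for Tnf, chr17:35205352-35205601 (minus strand) for Lta and chr17:35194257-35194506 (plus strand) for Ltb. Capitals mark matches, on either strand, to GGAAA, the core recognised by NFAT factors, or to a form of the kappaB motif, GGGA and CC separated by any 4 bases.

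Tnf: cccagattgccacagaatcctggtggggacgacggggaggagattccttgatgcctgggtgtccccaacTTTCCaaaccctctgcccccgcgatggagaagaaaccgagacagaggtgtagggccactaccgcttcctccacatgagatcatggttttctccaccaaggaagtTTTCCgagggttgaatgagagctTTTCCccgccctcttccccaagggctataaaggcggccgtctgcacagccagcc

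Lta: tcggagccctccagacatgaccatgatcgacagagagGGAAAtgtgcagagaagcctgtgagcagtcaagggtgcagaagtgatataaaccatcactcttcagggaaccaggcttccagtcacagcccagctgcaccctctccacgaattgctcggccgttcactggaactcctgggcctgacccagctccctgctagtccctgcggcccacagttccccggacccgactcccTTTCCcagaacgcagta

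Ltb: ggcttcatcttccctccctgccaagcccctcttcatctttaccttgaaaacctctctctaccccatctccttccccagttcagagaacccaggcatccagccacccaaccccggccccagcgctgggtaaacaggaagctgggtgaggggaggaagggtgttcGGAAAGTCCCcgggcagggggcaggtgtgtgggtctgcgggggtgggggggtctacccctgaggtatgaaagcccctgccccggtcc

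The Tnf sequence held 3 matches to GGAAA, whose first bases lay 181, 77 and 54 bases before the start, and none to the kappaB form. Lta held 2 matches to GGAAA, at 213 and 17 bases, and none to the kappaB form. Ltb held 1 match to each, both at 87 bases and overlapping, with the GGAAA letters inside the kappaB match. The AP-1 motif TGANTCA was in none of the 3 windows. Over all 32851 promoter windows of the same length in the RefSeq table, 55.6% held GGAAA at least once and 6.39% at least 3 times, 17.6% held the kappaB form and 6.75% held TGANTCA. Promoters were listed for 31 of the 40 genes, in 35 windows, of which 29 held GGAAA, 8 held the kappaB form and 6 held TGANTCA. These matches describe letters in a short window and are not evidence of binding.

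The ligand Tnf stood out in the family: its transcript was at least 5.32-fold lower in RPE-exposed T cells. Tnf encodes the founding cytokine of the family, and its only probe set had a signal of 8.6 in RPE-exposed T cells, under the floor, against 85.1 in control T cells. The difference was at most -2.41, outside the like-level range of -0.99 to 0.70. Tnf was also the only 1 of 31 compared members past 2-fold (3.23%), where 1.06% of all 11015 genes compared were past it in either direction, 0.436% as higher and 0.626% as lower in RPE-exposed T cells. A count of 1 gene does not set the family apart from that background.

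The genes beside Tnf did not share its difference. Lta, encoding lymphotoxin alpha, which binds the TNF receptors as a homotrimer, had 58.5 in RPE-exposed and 74.5 in control T cells, 1.27-fold lower (-0.35, like-level range -0.75 to 0.65). Ltb, whose product anchors lymphotoxin at the membrane and serves lymphoid organ formation, had 1090.1 in RPE-exposed and 883.7 in control T cells, 1.23-fold higher (0.30, range -0.36 to 0.36). Both lay within their ranges, which shows only that neither was among the most extreme genes of like signal. Each difference was larger in size than the median absolute difference of all genes compared (0.16).

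**Figure D1:**
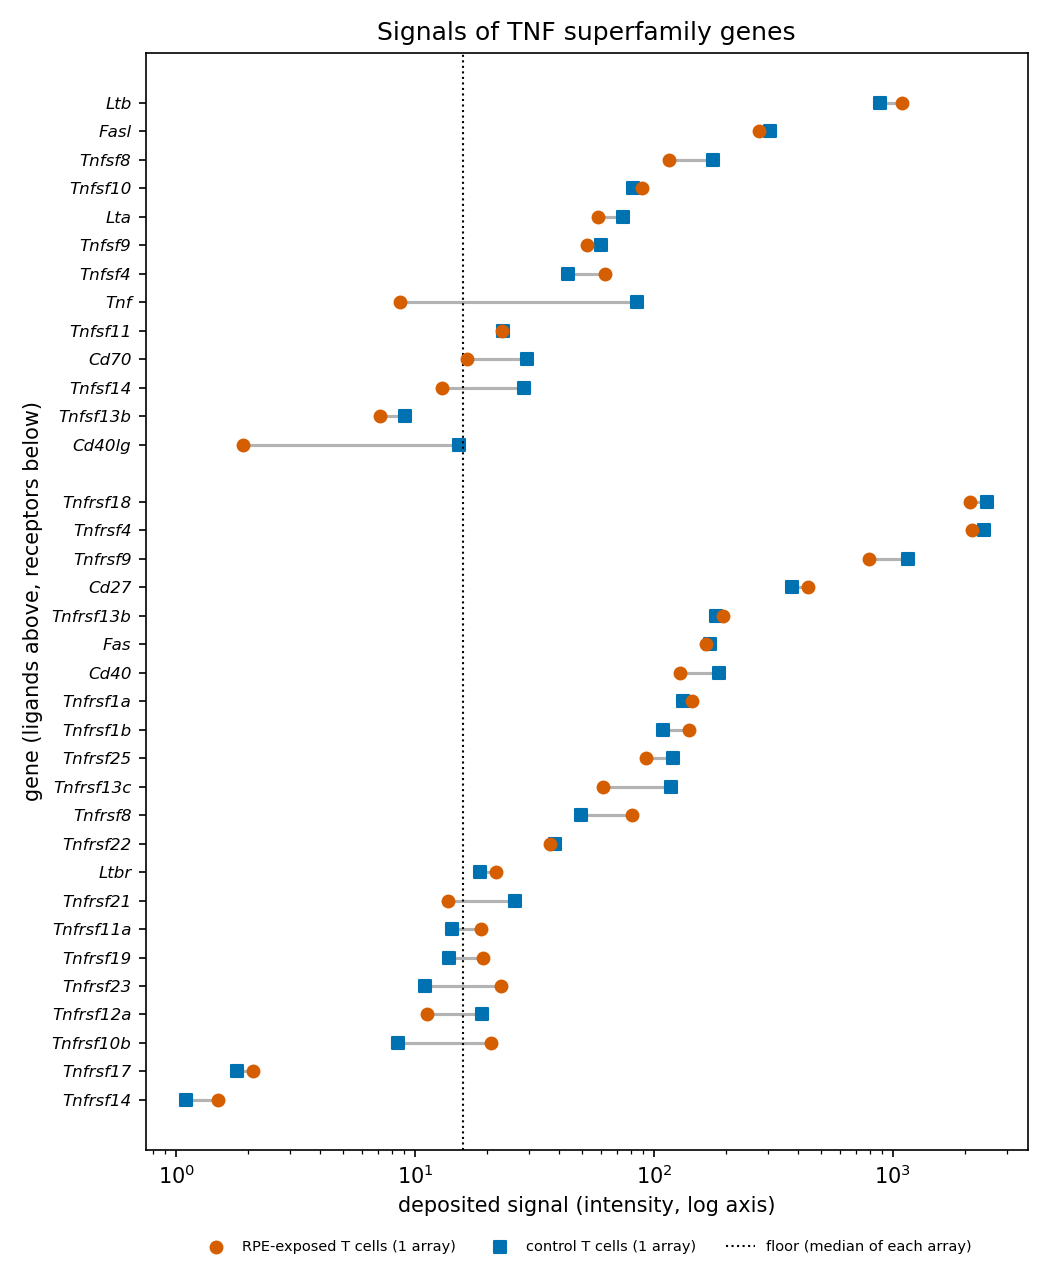
Deposited signals (log axis) of the 35 genes with a probe set, ligands above and receptors below, with 1 circle for RPE-exposed and 1 square for control T cells per gene and a dotted line at the floor. The pair of points lies far apart for Tnf (8.6 and 85.1) and close together for Tnfrsf4 (2135.4 and 2400.1); the order within each block follows the signal and is not a ranking of transcript level.

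Ligands of costimulatory receptors went both ways. Tnfsf8, CD30 ligand, had 115.8 in RPE-exposed and 177 in control T cells, 1.53-fold lower (-0.61) and just under its like-level range of -0.54 to 0.53. Cd70, the ligand of CD27 on activated lymphocytes, had 16.5 and 29.5, 1.79-fold lower (-0.84). Tnfsf14, encoding LIGHT, had 13 in RPE-exposed T cells, under the floor, and 28.6 in control T cells, at least 1.79-fold lower, and its other probe set had 9.8 and 27.9. The differences of Cd70 and Tnfsf14 rest on signals near the floor and lay inside a like-level range of -0.91 to 0.89.

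In the other direction, Tnfsf4, encoding OX40 ligand, had 62.1 in RPE-exposed and 43.6 in control T cells, 1.42-fold higher (0.51, range -0.80 to 0.73). Tnfsf9, the CD137 ligand, had 52.6 and 59.8, a difference of -0.19. Cd40lg, the T-cell ligand that activates B cells and dendritic cells through CD40, was under the floor on both arrays with 1.9 in RPE-exposed and 15.2 in control T cells, so no fold is given.

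The ligand genes Fasl, Tnfsf10 and Tnfsf11 were nearly level between the samples on their representative probe sets. Fasl, which triggers apoptosis through Fas, had 274.2 in RPE-exposed and 305.9 in control T cells for its main probe set and 204.8 and 208.2 for the other, with a mean difference of -0.09 ± 0.095 (SD over 2 probe sets). Tnfsf10, encoding TRAIL, had 89 in RPE-exposed and 81.3 in control T cells. Its 3 probe sets disagreed in sign, from -0.09 to 0.41. Tnfsf11, encoding RANKL, had 23.1 and 23.4. The B-cell survival ligand gene Tnfsf13b, encoding BAFF, was under the floor on both arrays for all 3 of its probe sets, with signals of at most 9.1.

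Over the 11 ligands compared, 8 had a negative and 3 a positive difference, with a median of -0.19. Among the 20 receptors compared, 10 were negative and 10 positive, with a median of 0.03, and over all genes compared the median was -0.01 with 51.5% negative. Where only the signal of 1 sample passes the floor, the filter fixes the sign of the difference, as for 2 of the ligands and 6 of the receptors. Without those genes, a choice added after the values had been seen, the 9 ligands left had 6 negative and 3 positive differences and a median of -0.16, and the 14 receptors left had 8 negative and 6 positive differences and a median of -0.06. The sign of the receptor median thus depended on genes near the floor.

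**Figure D2:**
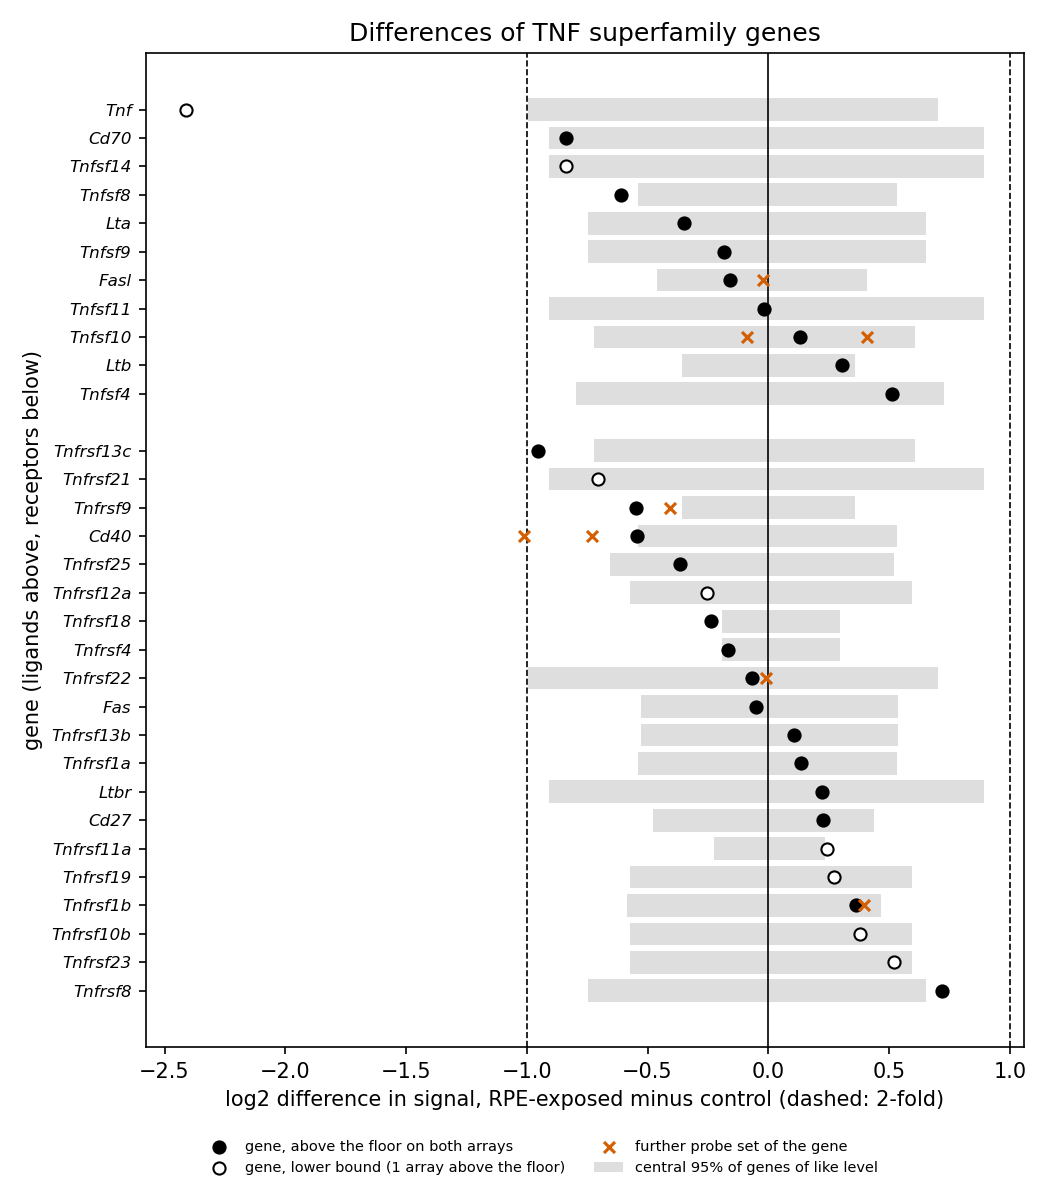
Log2 difference in signal, RPE-exposed minus control, for the 31 members above the floor on at least 1 array, ligands above and receptors below. Filled points are above the floor on both arrays, open points are lower bounds, crosses are further probe sets, grey bars span the central 95% of genes of like level and dashed lines mark 2-fold; Tnf at -2.41 is the only point past a dashed line among the representative probe sets.

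Among the costimulatory receptors of activated T cells, Tnfrsf9 and Tnfrsf18 lay below their like-level ranges. Tnfrsf9, encoding CD137, had 791.9 in RPE-exposed and 1157.5 in control T cells, 1.46-fold lower (-0.55, range -0.36 to 0.36). A further probe set gave 742.7 and 984.3, so that 2 probe sets averaged -0.48 ± 0.10 (SD), while the last was under the floor on both arrays (7.8 and 6.5). Both probe sets of Tnfrsf9 above the floor were thus lower in RPE-exposed T cells, and the representative one lay outside its range.

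Tnfrsf18, encoding GITR, had 2111.5 in RPE-exposed and 2487.3 in control T cells, 1.18-fold lower (-0.24, range -0.19 to 0.30). Its chromosomal neighbour Tnfrsf4, encoding OX40, had 2135.4 and 2400.1, 1.12-fold lower (-0.17, same range). GITR and OX40 are both prominent on activated and regulatory T cells. Only the GITR value lay outside the range, and by little.

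Some other receptors of T cells were higher. Tnfrsf8, encoding CD30, had 81.1 in RPE-exposed and 49.3 in control T cells, 1.65-fold higher (0.72) and above its like-level range of -0.75 to 0.65. Tnfrsf1b, encoding TNFR2, the TNF receptor that supports T-cell growth, had 139.9 and 108.7 for 1 probe set and 110 and 83.6 for the other, a mean difference of 0.38 ± 0.023 (SD over 2 probe sets). Cd27, a costimulatory receptor of resting and memory T cells, had 440.4 and 376.3 (0.23). All 4 of the probe sets of these 3 genes were higher in RPE-exposed T cells, those of Tnfrsf1b and Cd27 within their ranges.

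Receptors with a death domain went both ways, and the differences of Tnfrsf21 and Tnfrsf10b are bounds. Tnfrsf1a, encoding TNFR1, had 144.7 in RPE-exposed and 131.8 in control T cells (0.13), and Fas had 165.3 and 171.3 (-0.05). Tnfrsf25, encoding death receptor DR3, a costimulator of T cells, had 92.9 and 119.7, 1.29-fold lower (-0.37, range -0.65 to 0.52). Tnfrsf21, encoding DR6, had 13.7, under the floor, and 26.1, at least 1.63-fold lower. Its other probe set was under the floor on both arrays (6.5 and 12). The averaged probe sets gave at most -0.15, also a bound, since their RPE-exposed mean lay under the floor. Tnfrsf10b, the mouse TRAIL death receptor, had 20.7 in RPE-exposed T cells and 8.5, under the floor, in control T cells, at least 1.30-fold higher, although its other probe set was under the floor on both arrays at 10.8 and 11.1.

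The mouse decoy receptors for TRAIL, Tnfrsf22 and Tnfrsf23, are neighbouring paralogs whose probe sets can share signal, so their values are uncertain as separate measurements. Tnfrsf23 had 22.8 in RPE-exposed and 11 in control T cells, at least 1.43-fold higher. Tnfrsf22 had 36.8 and 38.6 for its main probe set and 26.9 and 27.1 for another, but 23 and 8.5 for the last. The probe sets of Tnfrsf22 therefore did not show the same difference.

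Receptors expressed mainly by B cells and antigen-presenting cells split. Tnfrsf13c, the BAFF receptor of B cells, had 60.9 in RPE-exposed and 117.9 in control T cells, 1.94-fold lower (-0.95, range -0.72 to 0.61). Cd40, the receptor by which B cells and dendritic cells receive T-cell help, was lower on all 3 probe sets, with 128.1 and 187, 68.3 and 113.4, and 57.8 and 116.5 in RPE-exposed and control T cells. The differences of these Cd40 probe sets averaged -0.76 ± 0.23 (SD), and the last, at -1.01, was just past 2-fold. Tnfrsf13b, encoding TACI, another receptor for BAFF, had 194.9 and 181 (0.11), and Tnfrsf17, the plasma-cell receptor BCMA, was under the floor on both arrays (2.1 and 1.8).

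B-cell marker genes were lower as well. The 10 of 12 listed markers that were compared had a median of -0.60 with 9 of them negative, and the summed signal of the 11 measured ones was 1601.6 in RPE-exposed and 2491.4 in control T cells, with none at 0. Ms4a1 had 443.6 and 618.5, Pou2af1 298.6 and 572, and Cd79b 236.2 and 320.2. Macrophage and dendritic-cell markers had a median of -0.49 (-0.51 over the 11 above the floor on both arrays), with 11 of 14 compared negative and a summed signal of 2286.9 in RPE-exposed and 3250.4 in control T cells over all 16. H2-Aa had 1080.8 and 1437.6, H2-Eb1 457.1 and 707.7, and H2-Ab1 312.8 and 481.7. These MHC class II genes had the highest signals of the list and make up most of its sum. B cells express them too, so neither they nor the sum are specific to macrophages and dendritic cells. The positive markers of the list were Csf1r (31.4 in RPE-exposed and 29.1 in control T cells) and, as bounds, Adgre1 (17.8 and 15.2) and Fcgr1 (17 and 12.6). The part of these cells in the values of Cd40, Tnfrsf13c, Tnf and the other members was not tested. In such bulk samples, fewer cells of a type and less RNA per cell cannot be told apart.

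The remaining receptors were near the floor. Ltbr, the lymphotoxin beta receptor, had 21.7 in RPE-exposed and 18.6 in control T cells. Tnfrsf11a, encoding RANK, had 18.8 and 14.3 for 1 probe set but 5.6 and 16.3 for the other, so the direction depended on the probe set. Tnfrsf12a, encoding the TWEAK receptor Fn14, had 11.2 and 19.1, at least 1.19-fold lower, and Tnfrsf19, encoding TROY, had 19.2 and 13.9, at least 1.21-fold higher. Tnfrsf14, encoding HVEM, the LIGHT receptor, was under the floor on both arrays (1.5 and 1.1).

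A smaller size rule of 1.5-fold, added after the values had been seen, counted 7 of 31 members, 22.6%, where 6.99% of all genes were past it. The 6 lower members (19.4%, against 3.87% of all genes lower by that much) were Tnf, Cd70, Tnfsf14, Tnfsf8, Tnfrsf13c and Tnfrsf21, and the 1 higher member (3.23%, against 3.12%) was Tnfrsf8. Of the lower 6, 4 were ligands, and Cd70, Tnfsf14 and Tnfrsf21 had signals of at most 29.5 on either array. Tnf, Tnfsf14 and Tnfrsf21 were above the floor in control T cells only, so the floor fixed their sign. With its probe sets averaged, Tnfrsf21 had a bound of at most -0.15, which does not show whether it was past 1.5-fold. Outside their like-level ranges lay 8 of 31 members, 25.8%, where 4.98% of all genes did. They were Tnf, Tnfsf8, Cd40, Tnfrsf9, Tnfrsf13c and Tnfrsf18 below and Tnfrsf8 and Tnfrsf11a above, the last as a bound at the edge of a narrow range of -0.22 to 0.23 near the floor. The median absolute difference was 0.30 over the 31 members and 0.16 over all genes compared.

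**Figure D3:**
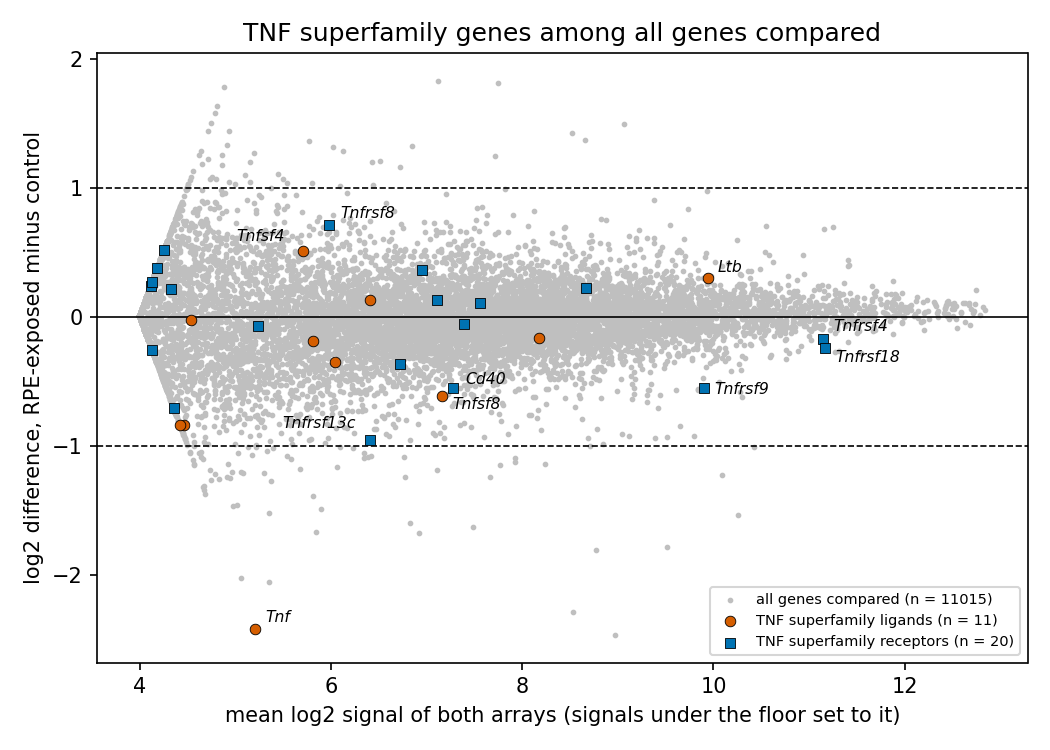
Log2 difference, RPE-exposed minus control, against the mean log2 signal of both arrays for all 11015 genes compared (grey), the 11 ligands (circles) and the 20 receptors (squares), with signals under the floor set to it and dashed lines at 2-fold. Tnf lies at -2.41, below the cloud of genes of like signal, and Tnfrsf9 lies at -0.55 among genes with a narrower spread.

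Ligands were also set beside the receptors they bind. Among 26 known ligand and receptor pairs, 16 had both genes compared. The ligand was lower and the receptor higher in 9 of these, both were lower in 2, both higher in 3, and the ligand was higher and the receptor lower in 2. The filter fixes some of these signs too, and in the 10 pairs with both genes above it on both arrays these counts were 5, 2, 1 and 2. Pairs also share genes, so the counts are not independent, and 3 of these 5 hold Lta. The CD30 pair had differences of -0.61 for the ligand gene Tnfsf8 and 0.72 for the receptor gene Tnfrsf8. The OX40 pair went the other way, with 0.51 for Tnfsf4 and -0.17 for Tnfrsf4, and the CD27 pair had -0.84 for Cd70 and 0.23 for Cd27.

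**Figure D4:**
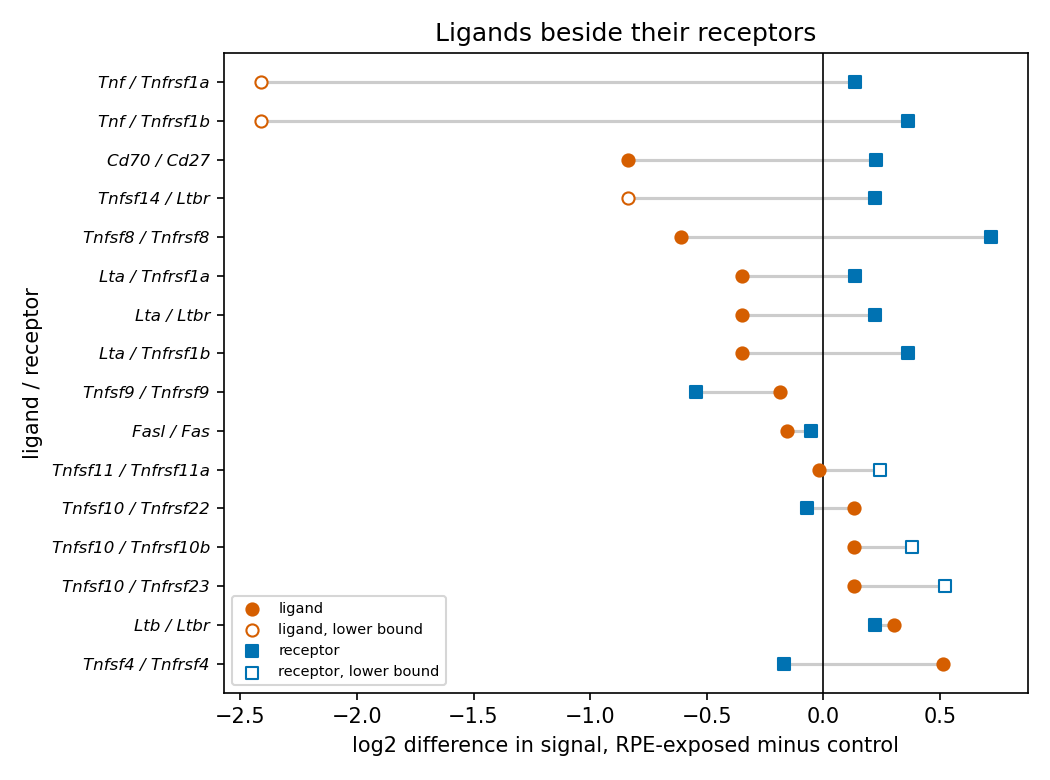
Log2 differences, RPE-exposed minus control, of the ligand (circle) and the receptor (square) in each of the 16 pairs with both genes compared; open symbols are lower bounds. Circles lie left of 0 and squares right of 0 in 9 pairs, 5 of them without an open symbol; the widest is Tnf with its receptors (-2.41 beside 0.13 and 0.36).

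Some members lie next to each other in the genome, and neighbours differed in how alike they were. On chromosome 17, Tnfsf9, Cd70 and Tnfsf14 follow each other and gave -0.19, -0.84 and at most -0.84. On chromosome 4, Tnfrsf1b and Tnfrsf8 gave 0.36 and 0.72, and Tnfrsf4 and Tnfrsf18 gave -0.17 and -0.24. On chromosome 6, Cd27, Ltbr and Tnfrsf1a, each separated by 1 gene, gave 0.23, 0.22 and 0.13. Signs were shared within these 4 stretches, although the floor fixed that of Tnfsf14. They were not shared among Ltb, Tnf and Lta, nor between Tnfrsf22 (-0.07) and Tnfrsf23 (at least 0.52) on chromosome 7. On chromosome 1, Tnfsf4 (0.51) and Fasl (-0.16), with Tnfsf18 between them, also had opposite signs.

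Pathway genes around these receptors differed little as a list that held intracellular signalling genes, NF-kappaB inhibitors and subunits, ligand-processing enzymes and 6 further family genes. Of the 55 listed, 51 had a probe set and 46 were compared, with 19 positive, 27 negative and a median of -0.03. The only 1 past 2-fold was Tank, an adaptor that binds TRAF proteins, and it was higher (1 of 46, 2.17%, beside the 0.436% of all genes). Its representative probe set had 401.5 in RPE-exposed and 114 in control T cells (1.82), but its other probe set had 71.5 and 79.6 (-0.15). The Tank difference therefore rests on 1 of 2 probe sets that disagree.

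Among the adaptors and kinases, Tab1, a partner of the kinase TAK1, had 37.1 and 51.6 (-0.48), and Birc2, the ubiquitin ligase cIAP1, had 312 and 419.8 (-0.43), both within their ranges. Outside their like-level ranges lay 4 of the 46 pathway genes, 8.70%, beside the 4.98% of all genes: Tank above, and 3 inhibitors below. Tnfaip3, encoding the NF-kappaB inhibitor A20, had 385.3 in RPE-exposed and 720.6 in control T cells (-0.90, range -0.41 to 0.37), and its probe sets gave -0.90 ± 0.0074 (SD, 2 probe sets). Nfkbia, encoding I-kappa-B alpha, had -0.27 for its representative probe set (range -0.19 to 0.30). It was lower on all 5 probe sets, which averaged -0.44 ± 0.25 (SD). Nfkbie, encoding I-kappa-B epsilon, had 172.9 and 248.8, and a further probe set at -0.55. Its representative value of -0.525 was only just under its range of -0.519 to 0.464. These 3 inhibitor genes are themselves induced by NF-kappaB, and the part of NF-kappaB activity in their values was not tested. Over the 9 inhibitors the median was -0.16.

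The NF-kappaB subunit genes Rela (561.4 in RPE-exposed and 641.6 in control T cells, -0.19) and Rel (79.4 and 95.1, -0.26) were within their ranges, as was Nfkb2 at -0.28, whose other probe set gave 0.69. Processing genes were level, with a median of 0.06 over 7 compared, among them the sheddase gene Adam10 (703.9 and 649.3), the intramembrane protease gene Sppl2a (318.4 and 300.3) and Rhbdf1 (24.8 and 21.4). Adam17, which releases soluble TNF from the membrane, had 236.7 and 246.5. Its value was looked up for that role and not chosen by size. Outside the member list, the family receptor gene Relt had 81.9 and 83.4, and 4 of the 6 further family genes were under the floor on both arrays.

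**Figure D5:**
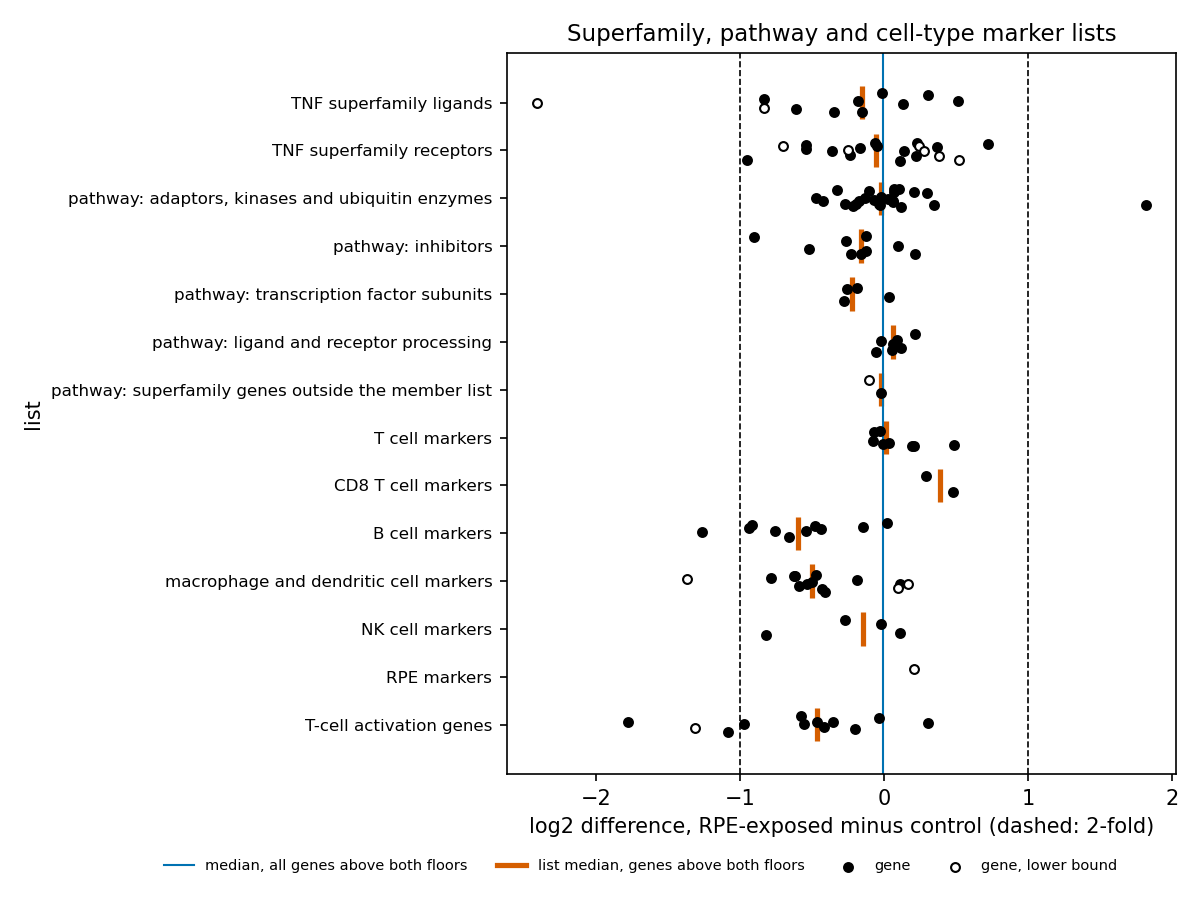
Log2 differences, RPE-exposed minus control, of each compared gene in the family, pathway, cell-type marker and T-cell activation lists, with a thick bar at the list median over genes above the floor on both arrays and a thin line at that of all such genes (-0.01); open points are lower bounds and enter no median. The B-cell, macrophage and dendritic-cell, and T-cell activation medians lie at -0.60, -0.51 and -0.47, left of the medians of the family ligands (-0.16) and receptors (-0.06).

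Several family members are induced when T cells are activated, and activation genes were lower in the same sample. Of 12 listed activation genes, 11 were negative and 3 at least 2-fold lower, beside 0.626% of all genes. The floor fixed the sign of 1 of these 3, Il2 (14.3 in RPE-exposed and 39.8 in control T cells). The list had a median of -0.51 (-0.47 over the 11 above the floor on both arrays) and a summed signal of 7799.9 in RPE-exposed and 10285.7 in control T cells. Icos had 1635.2 and 1676, Irf4 1015.6 and 1516.7, and Il2ra, the only positive one, 1482.4 and 1200.7. The part of activation state in the family's values was not tested. NK-cell markers had a median of -0.15 over 4 genes, with Klrd1 at 590.6 and 600.1, Eomes at 108.9 and 101, and Klre1 at 38.8 and 68.7.

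Agreement between probe sets of a gene gives the only view of measurement error here. Of the 55 member probe sets, 31 were at or above the floor on both arrays, 5 in RPE-exposed T cells only, 7 in control T cells only and 12 on neither. Among the 31, 11 had a positive and 20 a negative difference, with a median of -0.07. For the 6 genes with several such probe sets, Fasl, Tnfsf10, Tnfrsf1b, Cd40, Tnfrsf9 and Tnfrsf22, the pooled SD of the differences within a gene was 0.18, and it was 0.24 over the 4779 genes of the whole array with several. Probe sets of a gene share the RNA sample and the array, so this SD holds no variation between cultures or animals. The single probe set of Tnf had no such check.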

How the data were processed

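The authors deposited 1 intensity per probe set and array, on a linear scale. Biotin-labelled cRNA was hybridised to Affymetrix arrays, per the labels' protocols; no label names the summarization software or detection calls. Trimming 2% of probe sets at either end left a mean of 100 on both arrays, and no scaling was added to the deposited intensities.

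The platform annotation named exactly 1 gene for 34945 of 45037 non-control probe sets; those naming several genes (932, of which 3 named a member) or none were left out. Log2 differences, floors, like-level ranges and lists were computed in Python 3.11.15 (pandas 2.3.3, numpy 2.4.6) and plotted in matplotlib 3.10.9. The computation of differences and 2-fold calls was checked on simulated data. The simulated differences were past 2-fold and in genes well above the floor, so recovery of smaller differences and of bounds was not checked. Promoter letters came from RefSeq (GRCm38.p6), and no member coordinates beyond those windows are given.

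The members, the pathway and marker lists and the 2-fold rule were chosen with earlier results of these data known. Members were all to be named. Of the pathway list, genes past 2-fold and up to 3 per subgroup with the largest differences above the floor on both arrays were named, and of each marker list up to 3 genes with the highest mean signal. Rpe65 and Adam17 were added for their role. Marker and pathway genes without a 1-gene probe set are not analysed here.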

Additional observations from a re-analysis of the deposited data

How the results depend on the processing

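No paired analysis was possible because each group had 1 array, and for the same reason no replicate could be left out. Over 8 alternatives to the floor, the choice of probe set and the scaling, 29 of 31 members kept the sign of their difference wherever they could be compared. The exceptions were Tnfrsf22, at 0.45 with all probe sets averaged and 0.53 when x_at, s_at and a_at probe sets were dropped, and Tnfsf11, at 0 after quantile normalization. Most of this was fixed in advance. Another floor or an offset could hardly reverse a sign, and the choice of probe set could not for the members with 1 probe set. The kept signs are therefore no measure of how reliable the differences are. Tnf has a single probe set, so the alternatives to the choice of probe set could not alter its value. It stayed past 2-fold in the 7 alternatives that gave it a value, from -3.31 to -2.04, but a floor at the 75th percentile left it under the floor on both arrays. There Tnfrsf13c was at most -0.38. The number of members past 2-fold was 5 of 33 for a 25th-percentile floor (15.2%, beside 7.85% of all genes), 5 of 35 without any floor (14.3%, beside 18.3% of all genes), 0 of 14 for a 75th-percentile floor (beside 0.327% of all genes), and 7 of 31 with the 1.5-fold rule. Without a floor the count includes genes at signals with no measurable order. The number of pathway genes past 2-fold was 2 of 49 for a 25th-percentile floor (4.08%, beside 7.85% of all genes) and 3 of 51 without any floor (5.88%, beside 18.3%). With the 1.5-fold rule it was 2 of 46 (4.35%, beside 6.99%). It was 0 when probe sets were averaged or x_at, s_at and a_at ones were dropped, since Tank was then under 2-fold or represented by its other probe set. The count over all genes was 1237 for a 25th-percentile floor, 22 for a 75th-percentile floor, 3333 without any floor, 71 with an offset of 16, and 770 with the 1.5-fold rule. The members' median ran from -0.16 to -0.02 and that of the pathway list from -0.04 to -0.02. Over genes above the floor on both arrays, an alternative chosen after seeing the data, the receptors' median was -0.060 in place of 0.03, while those of the ligands (-0.16), all members (-0.07) and the pathway list (-0.03) kept their sign. Signals near the floor limit the differences of Cd70, Tnfsf14, Tnfrsf21 and the other members given as bounds.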
